A study of Caenorhabditis elegans with 6 samples.

Results

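The p38 MAP kinase pathway of Caenorhabditis elegans and its effectors were followed in larvae raised with or without sodium perchlorate. The set was defined by gene symbol and held 10 genes: the kinase cascade tir-1, nsy-1, sek-1 and pmk-1, the phosphatase gene vhp-1, the transcription factor gene atf-7, and the effectors sysm-1, cld-9, irg-4 and irg-5. Of these, 9 had a probe set annotated to that symbol alone, each with 1 probe set, among 25478 genes so measured; nsy-1 was not measured here. Staged L4 hermaphrodites of wild-type strain N2 were grown for 48 hours at 20 °C from L1, on nematode growth medium with Escherichia coli OP50 (control, n = 3 arrays) or on the same medium with 1 mg/mL sodium perchlorate in agar and food (perchlorate, n = 3 arrays). Perchlorate, an oxidising anion, competes with iodide for uptake in vertebrates. Whole animals were measured, so fewer cells of a type and less RNA per cell cannot be told apart. Nothing in the labels ties replicates to separate cultures, and p-values therefore reflect only the spread between these samples, which may be technical.

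The p38 cascade is a central defence pathway of the worm intestine. TIR-1, a TIR-domain adaptor related to mammalian SARM, acts on the MAP kinase kinase kinase NSY-1, which acts on the MAP kinase kinase SEK-1, which phosphorylates the p38 kinase PMK-1. PMK-1 in turn phosphorylates the bZIP transcription factor ATF-7, and the MAP kinase phosphatase VHP-1 switches the kinase off again. Pathogen exposure raises effector genes through this route, and activity is carried by phosphorylation, which transcript levels do not report. Per the RefSeq gene table, tir-1 and atf-7 lie on chromosome III, vhp-1 and sysm-1 on II, sek-1 on X, pmk-1 and irg-4 on IV, and irg-5 and cld-9 on V. Genome positions are not given because the sources used here name no build for the array.

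Values are log2 RMA levels, and median levels of the arrays lay between 5.81 and 5.89. Perchlorate replicate 1 stood apart, with a score of 47.7 on the first principal component; replicates 2 and 3 scored 12.2 and 13.1, and the controls -27.2 to -20. Across all 26192 probe sets tested, the median log2 difference between perchlorate and control was 0.03. As for the labelled stage, the dimmest of 6 sperm genes lay at the 54th percentile of probe sets and the dimmest of 4 yolk genes at the 96th. None of these passed adjusted in limma. At an unadjusted p under 0.05, 1 of 4 yolk genes was higher (vit-5, by 0.33) and 0 lower, and 0 of 6 sperm genes differed. Of all probe sets 8.46% were higher at that threshold. Without overlap between groups, 2 of 4 yolk genes and 2 of 6 sperm genes were higher and 0 lower, beside 3364 of 26192 probe sets higher. The gaps were small, at 0.02 for spe-26 and gsp-4, 0.06 for vit-4 and 0.16 for vit-5.

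With perchlorate, 8 of the 9 measured genes lay below their control level and 1 above it, where 44.8% of all probe sets lay below. The members' median was -0.34 on the log2 scale. The effectors sysm-1, cld-9 and irg-5, the phosphatase gene vhp-1 and the cascade genes sek-1 and tir-1 were lower on all 3 perchlorate arrays than on any control array, while pmk-1, atf-7 and irg-4 overlapped between groups. None passed at a limma adjusted p under 0.05, where 2 of all probe sets, 0.00764%, were called. At an unadjusted limma p under 0.05, 6 of 9 were lower and 0 higher, beside 7.92% of all probe sets lower and 8.46% higher. The groups did not overlap for the same 6 genes, all lower, beside 11.2% of all probe sets lower. All 9 were brighter than the median probe set, and among probe sets that bright 11.5% were lower at an unadjusted p under 0.05 and 17% were lower without overlap. Without control replicate 2 the count at an unadjusted p under 0.05 was 3 of 9, with tir-1, sek-1 and irg-5 at unadjusted limma p of 0.0555, 0.0815 and 0.0535. In that fit 11.1% of all probe sets were under 0.05 in either direction, against 16.4% in the fit of all 6 arrays.

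**Figure D1:**
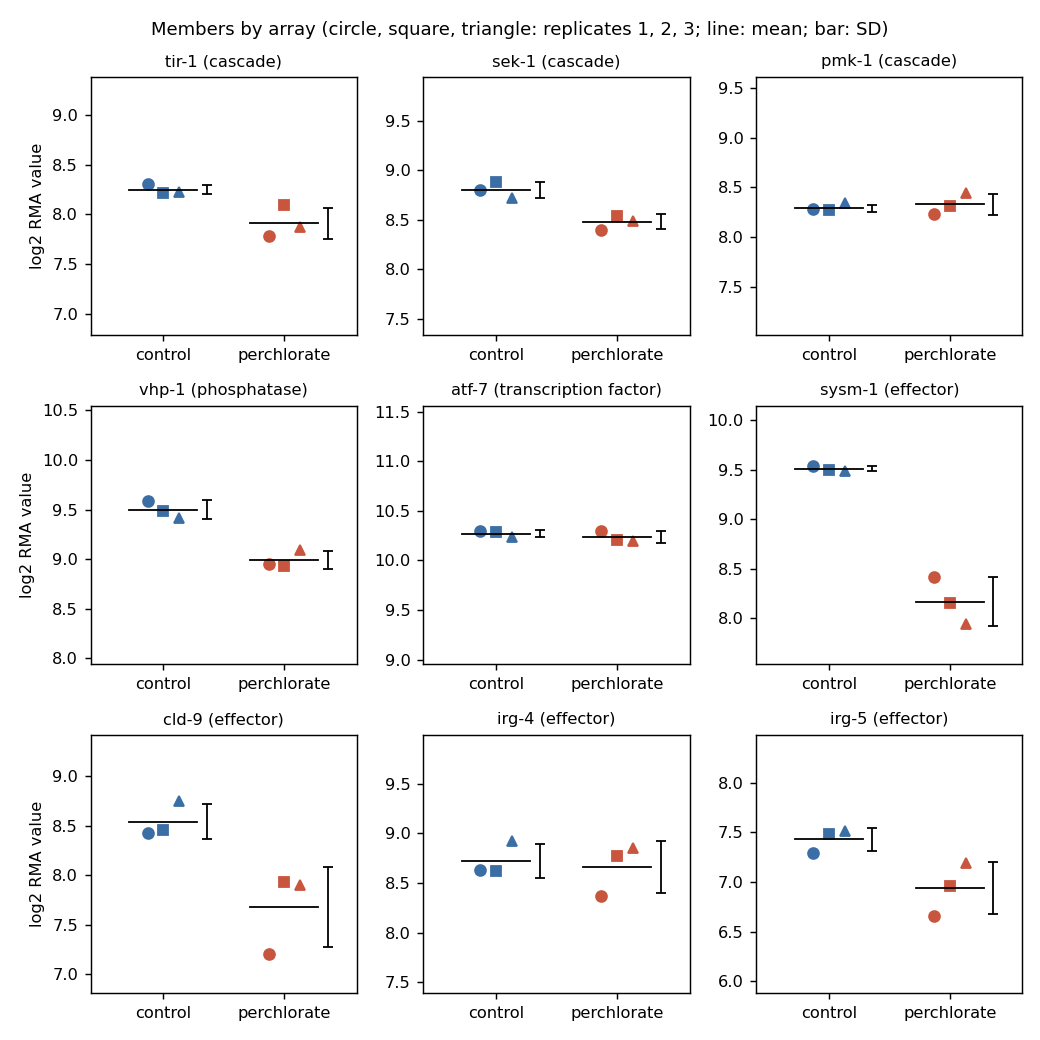
Log2 RMA value (vertical axis, each panel spanning the same range) of the 9 measured genes on the 3 control and 3 perchlorate arrays. Symbols mark replicate numbers, lines the group means and bars the SD. The groups are separate for tir-1, sek-1, vhp-1, sysm-1, cld-9 and irg-5 and overlap for pmk-1, atf-7 and irg-4.

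At the top of the cascade, the adaptor gene tir-1 had log2 levels of 8.31, 8.22 and 8.23 on the control arrays and 7.78, 8.09 and 7.87 with perchlorate. All perchlorate values lay below the lowest control, by as little as 0.13 between the nearest arrays. The group means were 8.25 ± 0.0486 and 7.91 ± 0.158 (SD, n = 3 each), which differ by -0.34 (SE 0.121, 95% interval -0.62 to -0.05, limma adjusted p = 0.243). This is 0.79 of the control level. Perchlorate replicate 2 was the nearest to the controls.

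The MAP kinase kinase gene sek-1 was at 8.80, 8.88 and 8.72 in controls and at 8.40, 8.54 and 8.49 with perchlorate. The groups were separate by 0.17, and the spread was narrow in each, with SDs of 0.0839 and 0.0757 (n = 3 each). The log2 difference was -0.32 (SE 0.109, 95% interval -0.58 to -0.06, limma adjusted p = 0.227), or 0.80 of the control level. It lay between -0.36 and -0.28 on leaving out any 1 array.

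The p38 kinase gene pmk-1 itself showed no separation. Its levels were 8.28, 8.27 and 8.34 in controls and 8.23, 8.31 and 8.44 with perchlorate, so that the perchlorate arrays held both the lowest and the highest value. The log2 difference was 0.03 (limma adjusted p = 0.91, SE 0.109). Its 95% interval, -0.23 to 0.29, holds differences of either sign. It was -0.02 without perchlorate replicate 3.

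Among the regulators, vhp-1 differed most. This MAP kinase phosphatase gene was at 9.59, 9.49 and 9.41 in controls and at 8.95, 8.93 and 9.09 with perchlorate. The lowest control exceeded the highest perchlorate array by 0.31. Means of 9.50 ± 0.0918 and 8.99 ± 0.0884 (SD, n = 3 each) gave a log2 difference of -0.51 (SE 0.112, 95% interval -0.77 to -0.24, limma adjusted p = 0.148), which is 0.705 of the control level. The call passed with a trended, robust prior (limma adjusted p = 0.044, and between 0.044 and 0.417 over the alternatives). That prior called 328 of 26192 probe sets, against 2 in the reported fit. By its unadjusted p, vhp-1 ranked 475 of 26192.

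The transcription factor gene atf-7, whose product PMK-1 phosphorylates, was at 10.30, 10.29 and 10.24 in controls and at 10.30, 10.21 and 10.20 with perchlorate. Those groups overlapped, and the log2 difference was -0.04 (SE 0.102, 95% interval -0.28 to 0.20, limma adjusted p = 0.884). Its within-group SD, 0.0476, was smaller than that of all but 2% of probe sets.

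**Figure D2:**
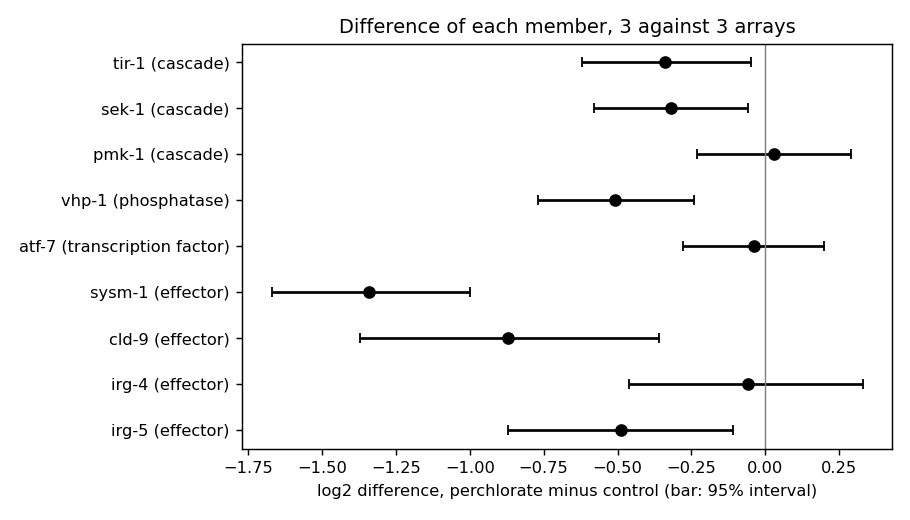
Log2 difference between perchlorate and control (horizontal axis) of the 9 measured genes, from limma with 3 arrays a group; bars are 95% intervals without adjustment for the number of probe sets. Intervals of pmk-1, atf-7 and irg-4 include 0, and sysm-1 lies farthest from it at -1.34.

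The effectors ranged from -1.34 to -0.06. The largest difference was in sysm-1, also known as T24B8.5, which encodes a small ShK-like secreted peptide and is widely used as a reporter of PMK-1 activity in the intestine. It was at 9.54, 9.5 and 9.49 in controls and at 8.42, 8.15 and 7.94 with perchlorate. Control arrays were nearly identical, and the nearest perchlorate array lay 1.07 below them. The log2 difference was -1.34 (SE 0.144, 95% interval -1.67 to -1.0, limma adjusted p = 0.0939), or 0.396 of the control level, and by its unadjusted p the gene ranked 8 of 26192. It passed when probe sets below the median brightness were left out (limma adjusted p = 0.0285) and with a trended, robust prior (0.0139), and its adjusted p lay between 0.0139 and 0.417 over all alternatives. Its difference was -1.46 without perchlorate replicate 1, the array on which sysm-1 was least reduced.

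The effector cld-9 was at 8.43, 8.46 and 8.75 in controls and at 7.21, 7.93 and 7.90 with perchlorate. Perchlorate replicate 1 was far below the other perchlorate arrays, and all were below the controls, the nearest by 0.50. The log2 difference was -0.87 (SE 0.214, 95% interval -1.37 to -0.36, limma adjusted p = 0.154), or 0.549 of the control level. It was -0.63 without perchlorate replicate 1. The within-group SD of 0.311 exceeded that of 78% of probe sets.

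The infection response gene irg-5, which encodes a CUB-like domain protein, was at 7.29, 7.48 and 7.51 in controls and at 6.66, 6.96 and 7.19 with perchlorate. The groups were separate by 0.10. The log2 difference was -0.49 (SE 0.160, 95% interval -0.87 to -0.11, limma adjusted p = 0.213), or 0.712 of the control level. It was -0.35 without perchlorate replicate 1, the lowest array.

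The related gene irg-4, also of the CUB-like family, did not separate. Its levels were 8.63, 8.62 and 8.92 in controls and 8.37, 8.77 and 8.85 with perchlorate. The log2 difference was -0.06 (SE 0.166, 95% interval -0.46 to 0.33, limma adjusted p = 0.881). The sign turned without perchlorate replicate 1, where it was 0.09, and without control replicate 3, where it was 0.04.

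Changes of 8 pairs of genes were also compared within each array, where a shift of the whole array cancels; the pairs were chosen after the values were seen. With 3 against 3 arrays the smallest two-sided exact permutation p is 0.1, so no pair could pass the adjusted threshold. Relative to irg-4, sysm-1 was lower by -0.73, -1.40 and -1.70 on the perchlorate arrays, against 0.12, 0.10 and -0.21 in controls, a mean of -1.27 (exact p = 0.1, adjusted p = 0.114 over the 8 pairs). For cld-9 relative to irg-4 the mean was -0.80 and for irg-5 relative to irg-4 it was -0.43, each at the same exact p. The groups did not overlap in these 3 pairs. The phosphatase gene vhp-1 relative to pmk-1 was at 0.11, 0.02 and -0.13 in controls and at -0.48, -0.59 and -0.55 with perchlorate, a mean of -0.54 (exact p = 0.1, adjusted p = 0.114). Relative to sek-1, vhp-1 was at 0.09, -0.09 and -0.01 in controls and at -0.14, -0.31 and -0.10 with perchlorate. That mean was -0.18, with the groups only just separate (exact p = 0.1). Relative to tir-1 the vhp-1 mean was -0.17 with overlap (exact p = 0.2). The genes irg-4 and pmk-1 had been seen to differ little, by -0.06 and 0.03. Pairs with them therefore largely restate the single-gene differences, -1.34 for sysm-1, -0.87 for cld-9, -0.49 for irg-5 and -0.51 for vhp-1. The exact and adjusted p of these selected pairs are no separate support.

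The perchlorate arrays ordered the effectors differently. Perchlorate replicate 1 held the lowest perchlorate value for 6 of the 9 genes, among them cld-9, irg-4 and irg-5, whereas sysm-1 was lowest on replicate 3. Genes of the moulting cycle, which build and shed the cuticle, were lower over the same arrays. At an unadjusted limma p under 0.05, 9 of 12 were lower and 0 higher. Of all probe sets 7.92% were lower in this way, and 11.5% of those brighter than the median. The median log2 difference of the list was -1.12. The moulting genes had medians of -1.79, -0.90 and -0.64 relative to the control mean on perchlorate replicates 1, 2 and 3. The log2 of their summed unlogged levels ran from 12.12 to 12.41 in controls and from 10.67 to 11.66 with perchlorate. The brightest genes weigh most in that sum. The dimmest moulting gene lay at the 52nd percentile. Among them lin-42, the period homologue, differed by -1.24 (limma adjusted p = 0.122, SE 0.203). Without perchlorate replicate 1 the moulting count was again 9 of 12, with a median of -0.74. The part of the moulting genes, and of that array, in the results was not tested.

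**Figure D3:**
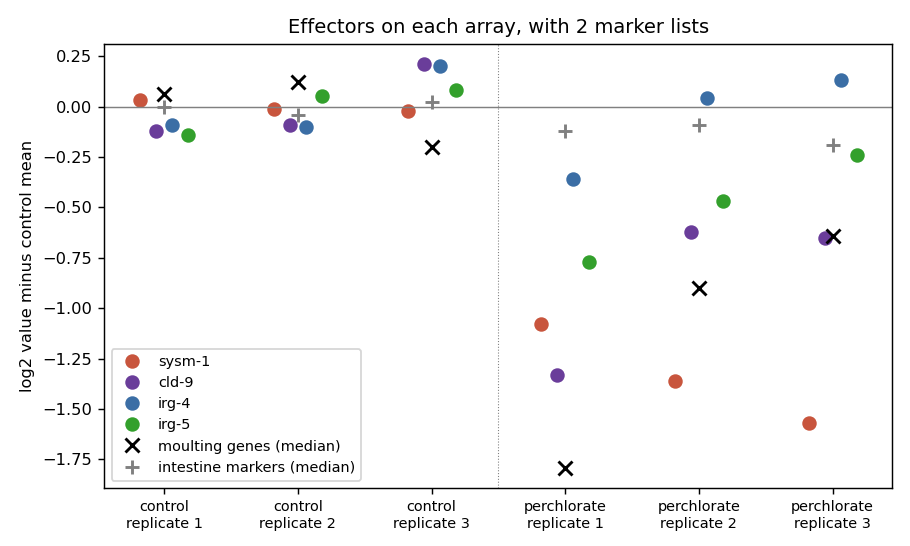
Log2 value minus the control mean (vertical axis) of the 4 effectors on each of the 6 arrays, with the medians of 12 moulting genes and 11 intestine markers. On perchlorate replicate 1 the moulting median was -1.79 and cld-9 stood lowest of the effectors, and on replicates 2 and 3 sysm-1 stood lowest.

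Markers of the intestine, where the effectors are known to act, were described beside them. Of 11 measured markers 2 were lower at an unadjusted limma p under 0.05 and 0 higher. Of all probe sets 7.92% were lower in this way, and 11.5% of those brighter than the median. The markers' median log2 difference was -0.22, between -0.40 and 0.23. Of the 11, 9 lay below 0, and 6 were lower and 1 higher without overlap between groups, where 17% of probe sets brighter than the median were lower in this way. Gaps of the lower markers ran from 0.02 for pho-1 and 0.04 for act-5 to 0.24 for ges-1. For mtl-2, the higher marker, the gap was 0.02. The gut esterase gene ges-1 differed by -0.40 (limma adjusted p = 0.176, SE 0.110). The log2 of the intestine markers' summed unlogged levels was 14.45 to 14.50 in controls and 14.37 to 14.46 with perchlorate. The brightest markers weigh most in that sum. The dimmest lay at the 77th percentile, and 1 marker was lower at an unadjusted limma p under 0.05 without perchlorate replicate 1. Of 6 epidermis markers 3 were lower at an unadjusted limma p under 0.05 and 0 higher, again beside 7.92% of all probe sets lower. Their median was -0.42, and the log2 of their summed levels was 11.02 to 11.22 in controls and 10.75 to 11.01 with perchlorate. The hedgehog-related gene wrt-2 differed by -0.99 (limma adjusted p = 0.148, SE 0.221). Of 9 pan-neuronal markers 0 were lower and 1 higher, beside 8.46% of all probe sets higher. Their median was -0.04, and the log2 of their summed levels was at most 12.1 in controls and at most 12.04 with perchlorate. Without perchlorate replicate 1 the count was 0 in either direction. The higher gene, unc-119, differed by 0.34 (limma adjusted p = 0.268, SE 0.131). The part of tissue composition in the results was not tested.

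The effectors irg-5 and cld-9 lie close together on chromosome V, with 2 protein-coding genes between them in the RefSeq order. These intervening genes were examined after the members' values were seen, and neither passed. F35E12.9 was at 4.68, 4.92 and 5.0 in controls and at 4.86, 5.14 and 5.42 with perchlorate, with overlap, a log2 difference of 0.27 (SE 0.171, 95% interval -0.13 to 0.68). F35E12.10 was at 9.62, 9.56 and 9.88 in controls and at 9.97, 10.01 and 9.93 with perchlorate, without overlap, a log2 difference of 0.28 (SE 0.124, 95% interval -0.01 to 0.58, unadjusted p = 0.0548 in the limma fit across all probe sets, adjusted p = 0.315). Relative to F35E12.10 on the same array, cld-9 was lower by a mean of -1.15 and irg-5 by a mean of -0.77, each without overlap (exact p = 0.1, adjusted p = 0.114 over the 8 pairs). As F35E12.10 was itself higher without overlap and both effectors lower without overlap, this separation was fixed beforehand and is no separate support. The exact p is the smallest that the number of arrays allows. On the other side of irg-5, F35E12.6 differed by 0.00 and dct-17 by -0.37, lower without overlap (unadjusted p = 0.0162 in the limma fit, adjusted p = 0.207). Next to dct-17, fbxa-181 was higher by 0.57 without overlap (limma adjusted p = 0.14), a dim gene at the 10th percentile in controls. Whether probe sets of related genes in this cluster share hybridisation was not tested.

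Around sysm-1, the adjacent gene T24B8.4 and T24B8.3 next to it differed by -0.45 and -0.43, each lower without overlap (unadjusted p of 0.0282 and 0.0177 in the limma fit across all probe sets). On the other side of sysm-1, hlh-3 differed by -0.08. None of the 10 nearest measured protein-coding genes had a difference as large as that of sysm-1. Near irg-4, the lectin genes clec-184 and clec-185 on either side differed by 0.28 and -0.02. The collagen gene col-130, 2 genes away from irg-4, differed by -1.05 (SE 0.329), with 8.48 on perchlorate replicate 1 beside 9.58 and 9.84.

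**Figure D4:**
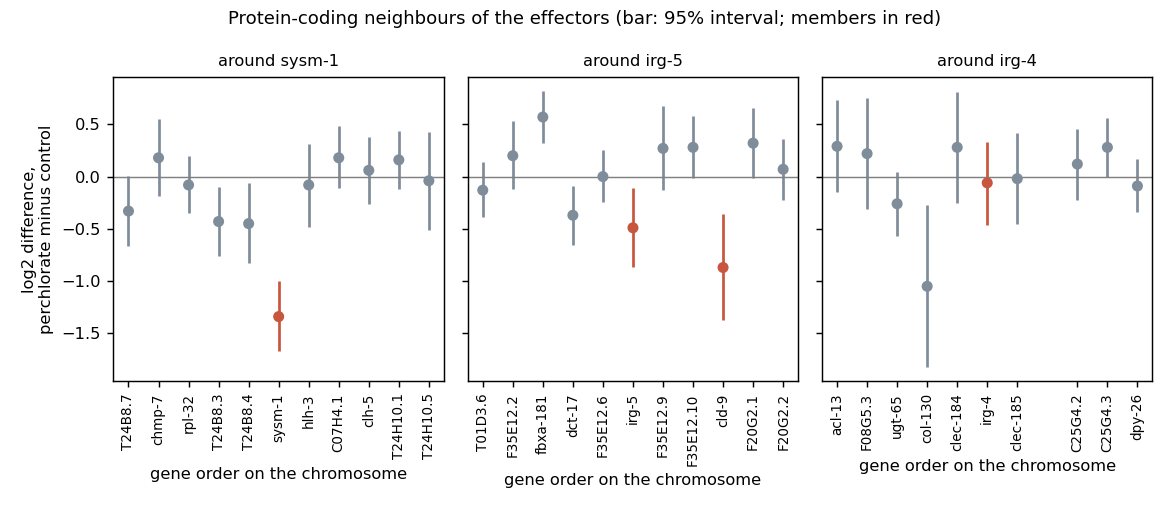
Log2 difference between perchlorate and control (vertical axis) of measured protein-coding genes within 5 genes of sysm-1, irg-5 and irg-4, in chromosome order (horizontal axis, not to distance); bars are 95% intervals and effectors are red. F35E12.9 and F35E12.10, between irg-5 and cld-9, have estimates above 0 with intervals that include 0.

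Genes most like each effector were sought among 18846 other protein-coding probe sets, by the root mean square distance over the 6 arrays after centring each on its control mean. Nearest to sysm-1 were the C-type lectin gene clec-17 (distance 0.173 log2 units), T19C9.8 (0.197) and C23H3.9 (0.234), against a median distance of 0.992. They differed by -1.48, -1.49 and -1.10, and clec-17 was the 1 of these that passed (limma adjusted p = 0.0456). That call was lost in 10 of 14 alternatives, among them each that left out 1 array. Nearest to cld-9 were cutl-15, a cuticlin-like gene (0.0763), the collagen gene col-89 (0.0921) and T03D8.6 (0.0976), with differences of -0.85, -0.80 and -0.82. Nearest to irg-4 were T10E9.6 (0.0261), scav-1 (0.0339) and dac-1 (0.0412), and nearest to irg-5 were R06A10.4 (0.048), ZK652.8 (0.0665) and bah-2 (0.0666). All distances rest on 6 arrays that share the contrast between groups.

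Signalling genes that act upstream of the cascade or beside it formed a further list. Of 14 measured, 6 were lower and 0 higher at an unadjusted limma p under 0.05, with a median log2 difference of -0.29, and 0 passed adjusted. Of all probe sets 7.92% were lower at that threshold and 8.46% higher. The 3 with the smallest p were nipi-3, egl-8 and fshr-1. The Tribbles-like kinase gene nipi-3, which acts upstream of the cascade in the epidermis, was at 9.40, 9.32 and 9.36 in controls and at 8.66, 8.82 and 8.76 with perchlorate. Those groups were separate by 0.50, and the log2 difference was -0.61 (limma adjusted p = 0.125, SE 0.106, and 0.0266 with a trended, robust prior). Over the alternatives the limma adjusted p of nipi-3 lay between 0.0266 and 0.417. The phospholipase C gene egl-8 differed by -0.52 (SE 0.133) and fshr-1, a receptor gene of intestinal defence known to act in parallel to PMK-1, by -0.42 (SE 0.114). The protein kinase C gene tpa-1 was at 8.04, 8.06 and 7.92 in controls and at 7.32, 7.64 and 7.67 with perchlorate. Without perchlorate replicate 1, 5 of 14 were lower and the median was -0.24.

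The kinases of the other p38 and JNK branches work beside the cascade. Of 12 measured, 1 was lower and 0 higher at an unadjusted limma p under 0.05, which is 8.33% beside 7.92% of all probe sets lower, and the median log2 difference was -0.07. That gene was pmk-3, a p38 paralogue, at 7.36, 7.23 and 7.41 in controls and 6.99, 7.07 and 7.11 with perchlorate, a log2 difference of -0.27 (limma adjusted p = 0.28, SE 0.109). Next in p were mlk-1, a MAP kinase kinase kinase gene of the KGB-1 branch, at -0.23 (SE 0.107), and kgb-2 at -0.38 (SE 0.197). The kgb-2 difference was -0.25 without perchlorate replicate 1 and -0.59 without perchlorate replicate 2. The paralogue pmk-2 was at 6.78, 6.90 and 6.73 in controls and 6.72, 6.83 and 6.92 with perchlorate. Without perchlorate replicate 1, 0 of 12 were lower.

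Other transcription regulators of immunity were lower in 9 of 14 cases at an unadjusted limma p under 0.05, and 0 were higher. Of all probe sets 7.92% were lower in this way, and 11.5% of those brighter than the median. The dimmest regulator lay at the 62nd percentile. The median log2 difference of the list was -0.31, and 0 passed adjusted. The 9 stood without perchlorate replicate 1 as a count, with a median of -0.35. The TFEB homologue hlh-30 was at 9.43, 9.33 and 9.13 in controls and at 8.55, 8.85 and 8.67 with perchlorate, a log2 difference of -0.61 (limma adjusted p = 0.148, SE 0.135). The zinc finger gene pqm-1 was at 10.23, 10.20 and 10.21 in controls and at 9.87, 9.59 and 9.63 with perchlorate, a log2 difference of -0.52 (limma adjusted p = 0.151, SE 0.118). The bZIP gene zip-2, which controls a pathogen response separate from PMK-1, differed by -0.55 (limma adjusted p = 0.156, SE 0.139). Each of these 3 had separate groups and passed only with a trended, robust prior (limma adjusted p of 0.0459, 0.04 and 0.0441), which called 328 of all probe sets. Over the alternatives their limma adjusted p reached 0.417, 0.417 and 0.418. The stress regulator skn-1, whose product PMK-1 phosphorylates, was at 8.88, 8.73 and 8.68 in controls and at 8.55, 8.49 and 8.29 with perchlorate.

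Other pathogen-response genes lay on both sides of 0. Of 19 measured, 3 were lower and 1 higher at an unadjusted limma p under 0.05, beside 7.92% of all probe sets lower and 8.46% higher. The median log2 difference was -0.04 and the range -0.65 to 0.31. Without perchlorate replicate 1 the counts were 4 lower and 2 higher and the median was 0.02. The infection response gene irg-7 was at 12.36, 12.27 and 12.18 in controls and at 11.55, 11.68 and 11.81 with perchlorate, a log2 difference of -0.59 (limma adjusted p = 0.143, SE 0.119). The C-type lectin genes clec-67 and clec-60 differed by -0.65 (SE 0.176) and -0.43 (SE 0.110). The higher gene, named after its value was seen, was spp-1, a saposin-like antimicrobial gene, at 10.50, 10.69 and 10.77 in controls and 10.99, 10.86 and 10.99 with perchlorate. The CUB-like gene dod-24 was at 8.73, 8.57 and 8.92 in controls and 8.65, 8.64 and 8.90 with perchlorate, and the lysozyme gene lys-8 was at 9.85, 9.67 and 9.76 and at 9.74, 9.67 and 9.75, so that the groups overlapped in each.

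**Figure D5:**
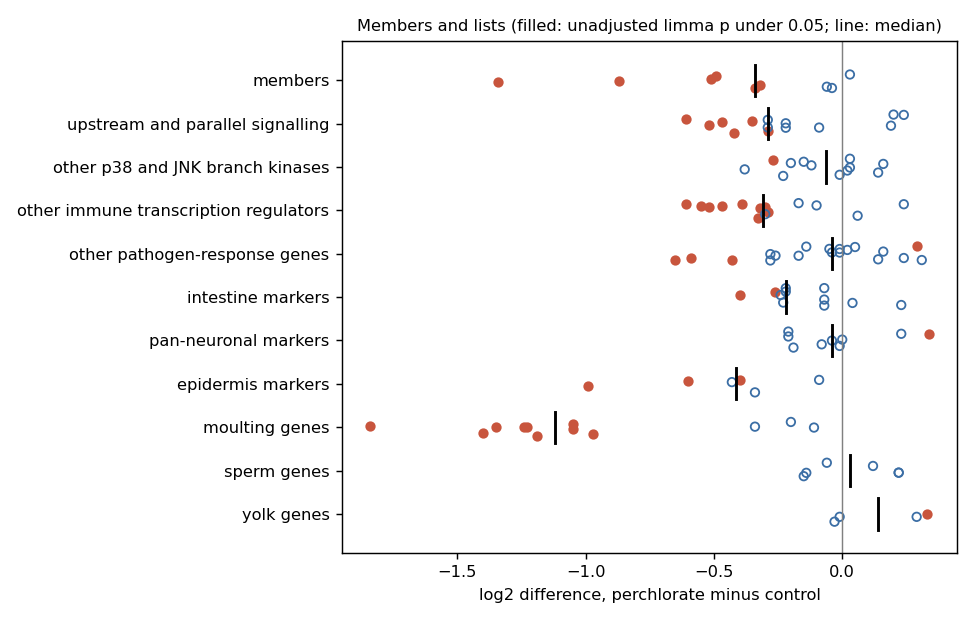
Log2 difference between perchlorate and control (horizontal axis) of the 9 members and of each measured gene of the other lists; filled points have an unadjusted limma p under 0.05 and lines are medians. The members' median is -0.34, that of the transcription regulators -0.31 and that of the other pathogen-response genes -0.04.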

How the data were processed

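Total RNA was amplified into biotin-labelled cDNA, per the labels' protocols, and hybridised to Affymetrix arrays. The deposited table holds log2 values per probe set; the submitters' processing notes name RMA and Affymetrix Expression Console, whose versions are not given in the sources used here. The control samples' growth notes repeat the perchlorate exposure; titles and treatment entries were followed. The 26192 of 29317 rows with an annotated gene were tested in limma 3.58.1 under R 4.3.3 (lmFit and eBayes without trend, two-sided, Benjamini-Hochberg over all rows, threshold 0.05), with no filter on brightness. The number of arrays limits the precision. In simulated data of 26192 rows, with noise from the SD fitted by limma, log2 changes of 0.5, 1 and 2 were put into 67, 67 and 66 rows. Of these 0%, 62.7% and 100% were recovered, with 7 false calls. In the measured data 16.4% of probe sets had an unadjusted limma p under 0.05. Recovery after adjustment depends on the share of changed rows, so these rates need not hold here.

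Members and lists were chosen with earlier results of these data known. Named were all members, the 3 genes with the smallest p in each other pathway list, 1 in each marker list, and the 3 genes nearest each effector; other genes were named after their values were seen. Of the listed genes dkf-2, dlk-1, C09H5.2, F49F1.6, opt-2 and vit-3 were not measured here. In the sperm list spe-26 differed by 0.22 and in the yolk list vit-5 by 0.33. Over all probe sets tested, same-numbered arrays did not deviate together (correlations of 0.0285, -0.018 and -0.00606). With the replicate number as a block, the SE fell for the effectors and rose for the other measured members. Alternatives were a block for the replicate number, leaving out each array, quantile normalisation again, median centring, 2 brightness filters, another prior, array weights, 1 row per gene and all rows.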

Additional observations from a re-analysis of the deposited data

How the results depend on the processing

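With the replicate number as a block 0 probe sets and 0 of the 9 measured members passed the adjusted threshold in limma; the smallest adjusted p was 0.256 and 5 members had an unadjusted p under 0.05. On leaving out any 1 array 0 probe sets and 0 members passed, and between 3 and 6 members had an unadjusted p under 0.05. The share of all probe sets under that unadjusted limma p, in either direction, moved as well. It was 16.4% in the reported fit and 14.9% with the block. On leaving out 1 array it ran from 10.7% (without control replicate 1) to 17.5% (without perchlorate replicate 2). Against 2 probe sets in the reported fit, quantile normalisation applied again, median centring and the fit over all rows called 1 each. Leaving out probe sets below the median brightness called 97, with 1 member (sysm-1), and a trended and robust prior called 328, with 2 members (sysm-1 and vhp-1). The count of members whose groups do not overlap was 6 both with quantile normalisation again and with median centring; leaving out arrays can only keep or raise it, and the filters and row sets leave it as it is. Among the genes named by rule, signs turned in 5 with differences near 0: on leaving out 1 array, pmk-1 ran from -0.02 to 0.08, irg-4 from -0.16 to 0.09, T10E9.6 from -0.12 to 0.12, scav-1 from -0.16 to 0.05 and dac-1 from -0.20 to 0.04, and T10E9.6 was at 0.02 with array weights. The other 7 members kept their sign in all 15 alternatives. The cause of these shifts was not tested. The counts of the other lists without perchlorate replicate 1 were chosen after seeing the data. In that fit 14.3% of all probe sets had an unadjusted limma p under 0.05 in either direction.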
